A study of Mus musculus with 4 samples.

Results

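The hypothalamus of mice carrying the smallest C26 inoculum of a tumour load series, 500000 cells (0.5M), was set against the hypothalamus of sham-injected mice. Each of the 19938 genes compared was represented by 1 probe set of the 35556 on the array. A gene was included where a probe set carried exactly 1 gene symbol, and the probe set with the highest mean over all 4 arrays stood for it. The choice of genes used no difference between the groups. All mice were male CDF1 animals (BALB/c x DBA/2), singly housed and 10 to 11 weeks of age, and total RNA came from the hypothalamus removed on day 20. Tumour-bearing mice had C26 colon adenocarcinoma cells placed under the skin of the right inguinal flank in 0.2 ml of Hanks' balanced salt solution, and control mice had the same volume of that solution without cells. The 0.5M array and the control array each held equal amounts of RNA from 4 animals. A 1M array (1000000 cells, 3 animals) and a 2M array (2000000 cells, recorded as 1 animal although its title says pooled) are given only beside these. Each group was 1 array, so the spread between animals was not measured and every difference below is a size without a test.

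C26 is a transplantable mouse colon carcinoma whose bearers lose muscle and fat, and it serves as a common model of cachexia. The hypothalamus integrates hormonal and inflammatory signals about body energy. Neurons of its arcuate nucleus that make neuropeptide Y and agouti-related peptide promote feeding, and those that make pro-opiomelanocortin products restrain it. Cytokines of the interleukin-6 family signal through gp130 receptors and the transcription factor STAT3, and glucocorticoids from the adrenal gland act on neurons, glia and vessels.

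The 2 arrays were close to each other. Across genes the levels correlated at 0.996 (Pearson's r, a description over genes of 2 arrays), and the central 95% of the differences, 0.5M minus control, lay between -0.37 and 0.34 log2. The median difference was -0.0066 log2, the quartiles -0.11 and 0.10 and the SD over genes 0.19. For scale, the SD between probe sets of the same gene had a median of 0.09 log2 over the 999 genes with more than 1 probe set, and its 95th percentile was 0.35. Differences were counted at 0.5 log2, which is 1.41-fold, and 138 genes (0.692%) were at least that much higher at 0.5M and 139 (0.697%) at least that much lower. At 1 log2 the counts were 12 genes higher (0.0602%) and 0 lower, and this count of 0 rests on no test. By sign alone 9602 genes (48.2%) were higher, 10300 (51.7%) lower and 36 equal. When each array was first centred on its median the same line gave 169 higher and 103 lower, so the split between directions depends on the scaling. That median was taken over all 35556 probe sets, including 12146 that the annotation does not list. Centring moved the median difference over genes to 0.0211 log2. Low signals varied more. The SD of the difference was 0.20 in the fifth of genes with the lowest levels, which held 37 of the higher and 57 of the lower genes, and 0.15 in the fifth with the highest levels, which held 14 and 8. Among the 11963 genes at or above the 40th percentile of the mean level, 6.59 log2, 67 were higher (0.56%) and 35 lower (0.293%) by this measure, 10 were at least 1 log2 higher (0.0836%), and by sign 51.5% were higher and 48.4% lower. The line itself marks no break. Stk26 lay just inside it and F830208F22Rik just outside on the higher side, both at 0.50 after rounding, and Shox2 and Aqp4 did so on the lower side, both at -0.50.

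**Figure D1:**
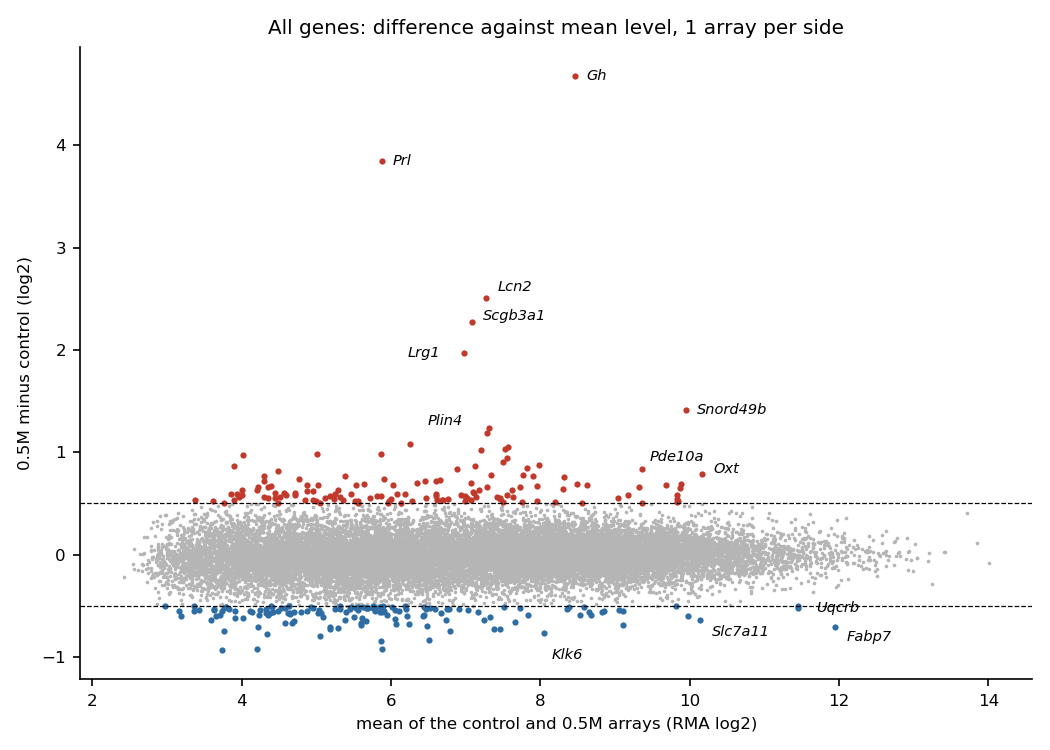
Difference between the 0.5M and control arrays (vertical axis, log2) against the mean of the 2 arrays (horizontal axis, RMA log2) for 19938 genes. Red points lie at least 0.5 log2 higher (138 genes), blue points at least 0.5 lower (139) and grey points between the dashed lines; Gh and Prl stand farthest out, followed by Lcn2, Scgb3a1 and Lrg1.

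The tissue label was checked against genes that mark the hypothalamus. The melanin-concentrating hormone gene Pmch and the orexin gene Hcrt, which are made by neurons of the lateral hypothalamus, stood at 11.40 and 11.46 log2 in the control array and at 11.80 and 11.61 at 0.5M. Sim1 and Otp, transcription factors of the paraventricular nucleus, were at 7.88 and 8.24 in the control array and at 8.19 and 8.53 at 0.5M. Nr5a1, which marks the ventromedial nucleus, was 6.97 in the control array and 7.09 at 0.5M. All of these exceeded the filter value of 6.59 log2 on both arrays. Pomc, at 7.19 and 6.99, did so too, and Agrp was not analysed here. Of 23 measured transcription factors of hypothalamic regions, 14 were higher and 9 lower at 0.5M, with a median difference of 0.07 log2. The cerebellar and mammillary region factor Barhl1, at -0.53, was the one past 0.5.

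Genes of the anterior pituitary, which hangs below the hypothalamus, gave the 2 greatest differences of the comparison. Gh, which encodes growth hormone, had levels of 6.13 in the control array, 10.80 at 0.5M, 6.91 at 1M and 6.85 log2 at 2M. Only the 0.5M array was high, 4.68 log2 above control, a 25.6-fold difference. Prl, which encodes prolactin, had levels of 3.95 in the control array, 7.80 at 0.5M, 4.50 at 1M and 4.51 log2 at 2M, a difference of 3.85 log2. Its mean over the 4 arrays was below the filter. The other pituitary genes did not share this size. Ghrhr, the growth hormone releasing hormone receptor of somatotrophs, differed by 0.40, Lhb, the luteinizing hormone beta subunit, by 0.34, Tshb, the thyrotrophin beta subunit, by 0.32, and Cga, their common alpha subunit, by -0.05. Of the 11 measured pituitary markers 2 passed 0.5 (18.2%, against 0.692% of all genes). The 11 markers had 8 higher and 3 lower and a median difference of 0.18 log2. Their mean level, which includes Gh and Prl, was 6.38 log2 in the control array, 7.27 at 0.5M, 6.68 at 1M and 6.50 at 2M. The median difference from control was 0.31 log2 at 1M and 0.22 at 2M, so by the median the group did not peak at 0.5M. Ghrhr stood 0.39 and 0.30 log2 above control at 1M and 2M, and Lhb 0.38 and 0.33. The labels do not say how the border with the pituitary stalk was set in each dissection, and the part of pituitary tissue in these differences was not tested.

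Markers of striatal projection neurons, which lie in the forebrain beside the hypothalamus, were higher as a group. All 12 measured markers were higher at 0.5M than in the control array, with a median difference of 0.26 log2, and in 10 of the 12 the 0.5M array was the highest of the 4. Ppp1r1b, which encodes the dopamine-regulated phosphatase inhibitor DARPP-32, had levels of 7.54 in the control array, 8.42 at 0.5M, 7.79 at 1M and 7.88 log2 at 2M. Pde10a, the phosphodiesterase of striatal neurons, had levels of 8.94 in the control array, 9.78 at 0.5M, 9.20 at 1M and 9.10 log2 at 2M. These differences from control were 0.87 and 0.84 log2, and the 0.5M array stood above each other array by at least 0.5. Rgs9, a regulator of G protein signalling, was 0.48 log2 higher than control and the dopamine receptor gene Drd1 0.43. The smallest differences among the 12 were those of Foxp1, a forkhead transcription factor, at 0.04, and Tac1, the substance P precursor, at 0.08. Further genes past 0.5 were highest on the same array without being on the list. Among them the muscarinic receptor gene Chrm4 had levels of 6.79 in the control array, 7.40 at 0.5M, 7.26 at 1M and 7.15 log2 at 2M, and Gng7, a G protein gamma subunit, levels of 9.11 in the control array, 9.62 at 0.5M, 9.26 at 1M and 9.11 log2 at 2M. These 2 were chosen after their values were seen. The striatal list was itself drawn up with earlier results of these data known, so its counts are no separate evidence about such neurons. The mean level of the 12 markers was 8.63 log2 in the control array, 8.97 at 0.5M, 8.70 at 1M and 8.70 at 2M.

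Markers of the midbrain and hindbrain were lower as a group. Their list and the meningeal list below were also drawn up with earlier results of these data known. Of 16 midbrain and hindbrain markers measured, 15 were lower at 0.5M and 1 higher, with a median difference of -0.25 log2. Their median difference from control was -0.09 log2 at 1M and -0.24 at 2M. Tph2, the neuronal enzyme of serotonin synthesis that marks the raphe nuclei, had levels of 6.28 in the control array, 5.44 at 0.5M, 5.12 at 1M and 5.26 log2 at 2M, so the control array was the highest. The serotonin transporter gene Slc6a4, made by the same neurons, differed by -0.30 log2, and Hoxb2, a hindbrain patterning gene, by -0.44. Gata3 differed by -0.45, and the dopamine transporter gene Slc6a3, which marks midbrain dopamine neurons, by -0.20. For Gata3 the 1M array, at 6.38 log2, lay above the control array, at 6.13. Of the 16 genes 11 were below the filter, where differences scatter more. The markers of meningeal fibroblasts and matrix showed a like pattern, with 16 of 17 lower, 1 higher and a median of -0.22 log2. Aldh1a2, a retinoic acid synthesizing enzyme of the meninges, had levels of 8.56 in the control array, 8.13 at 0.5M, 7.94 at 1M and 7.94 log2 at 2M, and the sulphate transporter gene Slc13a4 levels of 9.09 in the control array, 8.74 at 0.5M, 8.46 at 1M and 8.72 log2 at 2M. In both the control array was the highest, and the matrix Gla protein gene Mgp was the 1 marker higher at 0.5M, by 0.17. Cortical and thalamic neuron markers were split, with 9 of 15 higher, 6 lower and a median of 0.03 log2. In a bulk sample fewer cells of a type and less RNA per cell cannot be told apart, and the part of such cells in the other results was not tested.

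**Figure D2:**
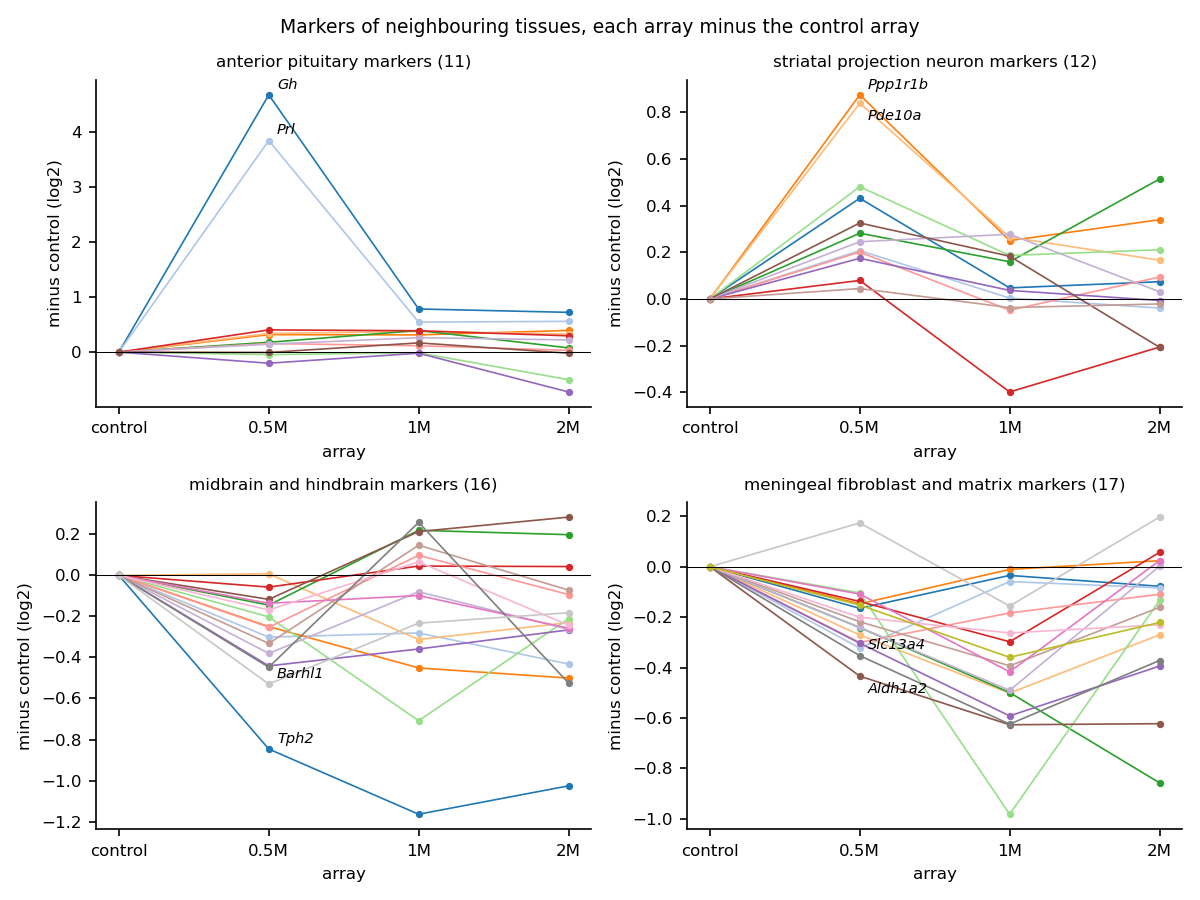
Level on each array minus the level on the control array (vertical axis, log2; the scale differs between panels) for each measured marker of 4 neighbouring tissues, 1 line per gene and 1 position per array on the horizontal axis. At 0.5M the striatal lines all lie above 0, 15 of 16 midbrain and hindbrain lines and 16 of 17 meningeal lines lie below it, and Gh and Prl peak at 0.5M.

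The list of interleukin-6 family signalling and acute phase genes included the strongest differences outside the pituitary genes. This list, with Scgb3a1 on it, was drawn up with earlier results of these data known, so its lead is no separate evidence for the pathway. Lcn2, the secreted siderophore-binding protein lipocalin-2, had levels of 6.02 in the control array, 8.53 at 0.5M, 8.23 at 1M and 8.82 log2 at 2M. Scgb3a1, a secretoglobin, had levels of 5.94 in the control array, 8.22 at 0.5M, 7.97 at 1M and 8.15 log2 at 2M. Lrg1, a secreted leucine-rich glycoprotein of the acute phase, had levels of 5.99 in the control array, 7.96 at 0.5M, 7.84 at 1M and 8.16 log2 at 2M. In each of these 3 genes the control array was the lowest by more than 1 log2. At 0.5M Lcn2 was 5.7-fold above control (2.51 log2), Scgb3a1 4.85-fold (2.28) and Lrg1 3.93-fold (1.97). Their control levels were below the filter value, so they passed it through the tumour-bearing arrays alone. Osmr, the receptor subunit for oncostatin M, had levels of 6.69 in the control array, 7.71 at 0.5M, 7.77 at 1M and 7.79 log2 at 2M, a difference of 1.02 log2. The smallest inoculum thus gave values that lay within 0.30 log2 of those at 1M and 2M for these 4 genes, all of which share the 1 control array.

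The rest of the interleukin-6 list was closer to control. Of its 28 measured genes 21 were higher and 7 lower, with a median difference of 0.11 log2, and 15 lay below the filter. The 4 genes given above were those past 0.5 (14.3%, against 0.692% of all genes). Timp1, an inhibitor of matrix metalloproteinases, differed by 0.43 log2 and Bcl3, a nuclear partner of NF-kB, by 0.37. The leukaemia inhibitory factor receptor gene Lifr differed by 0.29 and the ligand-binding subunit gene Il6ra by 0.20. Socs3, the feedback inhibitor of STAT3 signalling, was 6.54 in the control array and 6.68 at 0.5M, against 7.09 and 6.94 at 1M and 2M. The shared receptor subunit gene Il6st differed by -0.11, and Serpina3n, an acute phase protease inhibitor, by 0.01. The classical serum acute phase genes of the liver were low on these arrays, with Saa1 at 3.10 and 3.26, Hp at 5.79 and 5.60 and Orm1 at 5.21 and 5.10 log2 in the control and 0.5M arrays.

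**Figure D3:**
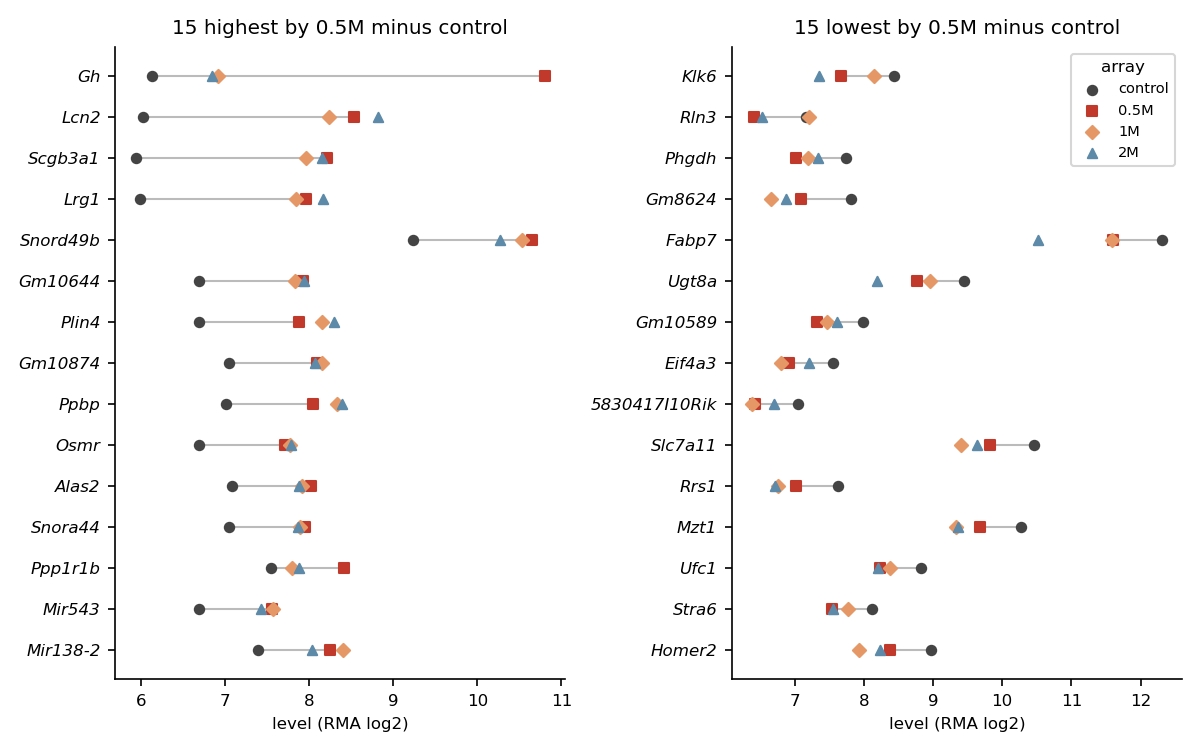
Level on each of the 4 arrays (horizontal axis, RMA log2) for the 15 genes highest and the 15 lowest by 0.5M minus control among genes past the filter; the grey line joins control and 0.5M. Gh is high on the 0.5M array alone, while Lcn2, Scgb3a1, Lrg1 and Plin4 are high on all 3 tumour-bearing arrays.

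Start regions are shown for a gene with, and a gene without, the palindrome that STAT factors are known to bind, because these 2 genes had the greatest differences of the interleukin-6 list. The letters TTCNNNGAA were searched on both strands of the bases from 250 before to 50 after each annotated start (RefSeq, GRCm38.p6). The Scgb3a1 window, chr11:49663345-49663644 on the + strand, holds the palindrome once, in capitals, beginning at position -194 relative to the start. The Lcn2 window, chr2:32387690-32387989 on the - strand, does not hold these letters.
Scgb3a1: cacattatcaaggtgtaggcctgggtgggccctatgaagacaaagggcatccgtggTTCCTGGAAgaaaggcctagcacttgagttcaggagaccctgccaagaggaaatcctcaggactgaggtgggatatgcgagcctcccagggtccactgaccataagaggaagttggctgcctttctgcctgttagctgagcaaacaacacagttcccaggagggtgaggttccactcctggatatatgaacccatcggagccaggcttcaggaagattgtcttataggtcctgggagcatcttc
Lcn2: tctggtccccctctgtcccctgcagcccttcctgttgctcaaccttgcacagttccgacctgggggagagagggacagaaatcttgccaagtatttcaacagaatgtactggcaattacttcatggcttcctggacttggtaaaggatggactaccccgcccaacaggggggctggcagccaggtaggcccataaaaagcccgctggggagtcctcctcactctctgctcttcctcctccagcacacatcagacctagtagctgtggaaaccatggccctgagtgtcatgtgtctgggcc
Of all 32851 windows 8.3% hold the palindrome, and 9.55% of the 27025 genes with a window have it in at least 1. Of the 24 listed interleukin-6 genes with a window 5 had it (20.8%), namely Scgb3a1, Socs3, Hamp, Fga and Fgb. Their differences were 2.28, 0.15, 0.28, -0.11 and 0.06 log2, so the letters occurred in genes with and without a difference. Lrg1 and Osmr windows had none. A match is a description of letters and not a binding site, and a window without a match says nothing of STAT binding elsewhere.

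Genes known to respond to glucocorticoids were mostly higher. Of 24 measured genes 19 were higher and 5 lower at 0.5M, with a median difference of 0.24 log2 against -0.0066 over all genes. Of the 24, 1 passed 0.5 (4.17%, against 0.692% of all genes). This list too was drawn up with earlier results of these data known, so its counts are no separate evidence for a glucocorticoid response. Plin4, which coats lipid droplets, had levels of 6.69 in the control array, 7.88 at 0.5M, 8.15 at 1M and 8.30 log2 at 2M, a 2.28-fold difference (1.19 log2) with the control array the lowest. Pdk4, the kinase that restrains pyruvate oxidation, had levels of 8.73 in the control array, 9.13 at 0.5M, 9.22 at 1M and 9.40 log2 at 2M. Sult1a1, a phenol sulphotransferase, had levels of 7.43 in the control array, 7.85 at 0.5M, 7.71 at 1M and 8.31 log2 at 2M. In both, the 0.5M array lay above the control array and below the 2M array. Klf9, a zinc finger factor, differed by 0.37 log2, Hif3a by 0.34, Zbtb16 by 0.33 and the serum and glucocorticoid-regulated kinase gene Sgk1 by 0.33. Fkbp5, a chaperone of the glucocorticoid receptor, differed by 0.21, with levels of 8.24 in the control array, 8.44 at 0.5M, 8.61 at 1M and 8.77 log2 at 2M. Per1, a clock gene with a glucocorticoid input, differed by 0.03, Dusp1 by -0.08 and the metallothionein gene Mt2 by -0.05. In 1 of the 24 genes the 0.5M array was the highest of the 4. Plin4 is a near neighbour of Lrg1 in the RefSeq order with Plin5 between them, and Plin5 differed by -0.06. Each of the single differences apart from Plin4 was below the 0.5 line.

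Of the 6 annotated start windows of Sgk1, 1 is shown because it holds the full palindromic glucocorticoid response element, which is rare. The element is AGAACA followed by a spacer of 3 bases and its inverted repeat with 1 base left free. It was found in 13 of 32851 windows (0.0396%) when both strands were searched. By gene it was found in 13 of the 27025 with a window (0.0481%) and in 1 of the 19 glucocorticoid-list genes with a window (5.26%). The Sgk1 window shown is chr10:21993640-21993939 on the + strand (RefSeq, GRCm38.p6), with the element in capitals beginning at position -189 relative to the start.
Sgk1: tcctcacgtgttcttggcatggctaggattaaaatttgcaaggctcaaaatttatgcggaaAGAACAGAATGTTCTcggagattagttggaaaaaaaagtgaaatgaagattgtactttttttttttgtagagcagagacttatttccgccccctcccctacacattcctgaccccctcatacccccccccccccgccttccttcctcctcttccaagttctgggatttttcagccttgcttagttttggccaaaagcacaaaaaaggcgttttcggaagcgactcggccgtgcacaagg
The other 5 Sgk1 windows do not hold the element. As above, a match is a description of letters and not a binding site. The STAT-type palindrome was in the windows of 4 of the 19 genes (21.1%), a share close to that in the interleukin-6 list. The genes were Sgk1, Klf9, Tsc22d3 and Per1.

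The peptides that stimulate feeding were split. Npy, the arcuate orexigenic peptide gene, had levels of 10.32 in the control array, 10.73 at 0.5M, 10.53 at 1M and 11.74 log2 at 2M, so it was 0.41 log2 higher at 0.5M, and the 2M array stood apart as the highest. Pmch had levels of 11.40 in the control array, 11.80 at 0.5M, 11.72 at 1M and 11.76 log2 at 2M. Galanin (Gal), which is made in several hypothalamic nuclei, had levels of 9.82 in the control array, 10.14 at 0.5M, 9.92 at 1M and 10.17 log2 at 2M. In these genes the control array was the lowest. Hcrt differed by 0.15, ghrelin (Ghrl) by -0.03, Galp by -0.07, apelin (Apln) by -0.13 and Qrfp by -0.16. Of the 8 genes 4 were higher and 4 lower, with a median of 0.06 log2, and none passed 0.5. The 4 lower genes differed by no more than 0.16 log2, and Galp was below the filter.

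The peptides that restrain feeding were centred near 0. Of 21 measured, 9 were higher and 12 lower, the median was -0.05 log2, and none passed 0.5. Pomc, the melanocortin precursor, had levels of 7.19 in the control array, 6.99 at 0.5M, 6.98 at 1M and 6.73 log2 at 2M, so the control array was the highest. Cartpt, which is made beside Pomc in arcuate neurons, had levels of 9.39 in the control array, 9.34 at 0.5M, 9.52 at 1M and 9.07 log2 at 2M. Cholecystokinin (Cck) had levels of 8.71 in the control array, 8.42 at 0.5M, 8.48 at 1M and 8.56 log2 at 2M, a difference of -0.30 log2. The corticotrophin-releasing hormone gene Crh was below the filter at 5.28 and 5.07. The thyrotrophin-releasing hormone gene Trh, at 0.34, and neurotensin (Nts), at 0.32, were the highest of the list. Nmu differed by 0.24, Ucn3 by 0.20 and Gcg by 0.19, all below the filter, as were Ucn (-0.21), Ucn2 (-0.13), Nms (-0.05), Iapp (-0.03) and Bdnf (0.06). The remaining members lay between -0.19 (Adcyap1, the precursor of the neuropeptide PACAP) and 0.09 (Nucb2, the nesfatin precursor), with Grp at -0.16, Cbln4 at -0.10, Pyy at -0.08, Nmb at 0.08 and Tac1 as given above.

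Receptors for appetite peptides and hormones differed little. Of 30 measured, 19 were higher and 11 lower, with a median of 0.05 log2. The leptin receptor gene Lepr had levels of 7.22 in the control array, 7.31 at 0.5M, 7.13 at 1M and 7.32 log2 at 2M, the melanocortin receptor gene Mc4r levels of 7.76 in the control array, 7.93 at 0.5M, 7.82 at 1M and 8.01 log2 at 2M and the ghrelin receptor gene Ghsr levels of 7.54 in the control array, 7.60 at 0.5M, 7.82 at 1M and 7.84 log2 at 2M. None of these receptors was past 0.5. Glp1r, the receptor of glucagon-like peptide, was the lowest at -0.38. The pancreatic polypeptide receptor gene Npy4r was the 1 past 0.5, at 0.56, and lay below the filter at 4.08 and 4.63. The receptor of the cachexia-associated cytokine GDF15, Gfral, was also below the filter and differed by -0.26.

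Posterior pituitary hormone genes were higher. Oxt, which encodes oxytocin and its neurophysin, had levels of 9.77 in the control array, 10.56 at 0.5M, 10.59 at 1M and 10.39 log2 at 2M. Avp, which encodes vasopressin and its neurophysin, had levels of 9.92 in the control array, 10.42 at 0.5M, 10.48 at 1M and 10.47 log2 at 2M. In both the control array was the lowest, by 0.79 and 0.50 log2 against 0.5M, and the 3 tumour-bearing arrays lay close together. Both peptides are made by magnocellular neurons whose cell bodies lie in the paraventricular and supraoptic nuclei. Mrps26, a mitochondrial ribosomal protein gene that adjoins Oxt in the RefSeq order, had levels of 6.72 in the control array, 7.42 at 0.5M, 7.12 at 1M and 7.15 log2 at 2M, 0.70 log2 above control. The array design does not show whether the 2 probe sets share transcript. Sim1 and Otp, which specify these neurons, differed by 0.31 and 0.29. Of the 17 neuroendocrine peptides 11 were higher and 6 lower, with a median of 0.13 log2. Oxt was the 1 past 0.5 (5.88%, against 0.692% of all genes). Vip differed by 0.48 below the filter, Pnoc by 0.30, somatostatin (Sst) by 0.26, Penk by 0.20, Npvf by 0.15, Prok2 by 0.14 and Pdyn by 0.13. Kisspeptin (Kiss1) differed by -0.34, Gast by -0.23, Npw by -0.19, gonadotrophin-releasing hormone (Gnrh1) by -0.17, growth hormone-releasing hormone (Ghrh) by -0.07, Cort by -0.04 and Tac2 by 0.02. Among the 11 thyroid axis genes 7 were higher and 4 lower, with a median of 0.07. Dio2, the deiodinase that activates thyroid hormone in tanycytes and astrocytes, had levels of 7.25 in the control array, 7.69 at 0.5M, 7.64 at 1M and 7.49 log2 at 2M, and the inactivating deiodinase gene Dio3 was -0.30 log2 from control and below the filter.

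Among the 15 lowest genes past the filter were Phgdh, Slc7a11 and Fabp7. Phgdh, the first enzyme of serine synthesis, had levels of 7.75 in the control array, 7.02 at 0.5M, 7.20 at 1M and 7.33 log2 at 2M. Slc7a11, the cystine and glutamate exchanger, had levels of 10.46 in the control array, 9.83 at 0.5M, 9.40 at 1M and 9.64 log2 at 2M. Fabp7, the brain-type lipid chaperone of glial progenitors and astrocytes, had levels of 12.30 in the control array, 11.60 at 0.5M, 11.58 at 1M and 10.52 log2 at 2M. The control array was the highest in all 3, and for Fabp7 the 2M array was the lowest. At 0.5M Phgdh was -0.73 log2 from control, Fabp7 -0.70 and Slc7a11 -0.63. Cth, which makes cysteine from cystathionine, was the 1 gene of the amino acid list past 0.5 on the higher side, at 0.53. The list as a whole had 6 of 19 genes higher and 13 lower, with a median of -0.10 log2. Its transcription factor genes Atf4 and Atf5 differed by -0.15 and -0.26. Cholesterol synthesis and transport genes were lower in 15 of 18 (13 with arrays centred on their medians), with a median of -0.09 and none past 0.5. Lss, which closes the sterol ring, had levels of 8.48 in the control array, 8.10 at 0.5M, 8.28 at 1M and 8.10 log2 at 2M, and Hmgcs1, an early step of the mevalonate pathway, levels of 10.48 in the control array, 10.29 at 0.5M, 10.08 at 1M and 9.76 log2 at 2M.

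Oligodendrocyte markers were lower in 14 of 18 and higher in 4, with a median of -0.11 log2. Ugt8a, which makes the myelin lipid galactosylceramide, had levels of 9.45 in the control array, 8.76 at 0.5M, 8.95 at 1M and 8.18 log2 at 2M and was the 1 marker past 0.5 (-0.69). Opalin and Enpp6, markers of myelinating and newly formed oligodendrocytes, differed by -0.38 and -0.38, and the major myelin gene Mbp by -0.03. The 0.5M array was the highest of the 4 in 0 of the 18 and the lowest in 2. Klk6, a secreted protease of oligodendrocytes, led the lower genes past the filter, with levels of 8.43 in the control array, 7.67 at 0.5M, 8.14 at 1M and 7.36 log2 at 2M. Of 13 tanycyte and radial glia markers 11 were lower (8 with arrays centred on their medians and 10 after cyclic loess), with a median of -0.10. Beside Fabp7 these were led by the intermediate filament gene Nes (-0.43, below the filter) and the tanycyte receptor gene Gpr50 (-0.42). Astrocyte markers were lower in 10 of 15, with a median of -0.06, from the water channel gene Aqp4 at -0.50 to the angiotensinogen gene Agt at 0.27, and Gfap differed by -0.09. Microglial and macrophage markers were lower in 10 of 17, with a median of -0.07, and none passed 0.5. Tmem119, a microglial membrane protein gene, differed by -0.30 and the complement gene C1qc by 0.21.

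Inflammatory genes outside the interleukin-6 list were not higher as groups. Of 24 cytokine and NF-kB genes 10 were higher and 14 lower, with a median of -0.05 log2. Of the 24, 14 lay below the filter, and the 10 past it had 6 higher, 4 lower and a median of 0.01. The cytokine genes Il1b, Il6 and Tnf were below the filter and differed by 0.07, -0.12 and -0.11. Nfkbia, the NF-kB inhibitor, differed by 0.31 and the prostaglandin synthase gene Ptgs2 by 0.37, while the chemokine gene Cxcl10 had levels of 5.71 in the control array, 5.18 at 0.5M, 5.72 at 1M and 5.36 log2 at 2M. Interferon response and MHC class I genes were lower in 16 of 24 (14 with arrays centred on their medians), with a median of -0.14. Of these 24, 11 lay below the filter, and the 13 past it had 3 higher, 10 lower and a median of -0.13. Oas1a, an antiviral RNA sensor, had levels of 5.94 in the control array, 5.25 at 0.5M, 6.38 at 1M and 5.60 log2 at 2M below the filter, and the MHC class I light chain gene B2m levels of 11.18 in the control array, 10.89 at 0.5M, 10.46 at 1M and 10.64 log2 at 2M. For Oas1a the 0.5M array was the lowest and the 1M array the highest, so the arrays did not order by cell number. Immediate early genes, which mark recent neuronal activity, were lower in 14 of 20, with a median of -0.08 and none past 0.5. Fos, which lay below the filter, differed by -0.40 and Egr1 by -0.29, whereas Dusp6 differed by 0.34. Neutrophil and lymphocyte markers were lower in 10 of 15, with 0 of the 15 past the filter and a mean level of 4.96 log2 in the control array and 4.85 at 0.5M. Lcn2 is itself a neutrophil granule gene.

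Blood and vessel genes contributed a few single differences. Ppbp, a chemokine gene of platelets, had levels of 7.01 in the control array, 8.04 at 0.5M, 8.34 at 1M and 8.39 log2 at 2M. Alas2, the erythroid enzyme that starts haem synthesis, had levels of 7.09 in the control array, 8.03 at 0.5M, 7.92 at 1M and 7.87 log2 at 2M. Vwf, the von Willebrand factor gene of endothelium and platelets, had levels of 7.38 in the control array, 8.15 at 0.5M, 8.09 at 1M and 8.14 log2 at 2M. In all 3 the control array was the lowest. Pf4, the platelet gene that adjoins Ppbp in the RefSeq order, differed by 0.02 and lay below the filter, and the red cell anion exchanger gene Slc4a1 differed by 0.15. The 7 measured red cell and platelet markers had 5 higher and 2 lower, a median of 0.13 and a mean level of 6.55 log2 in the control array and 6.84 at 0.5M. The adult globin genes were not among the genes analysed here. Endothelial and mural markers were split, with 10 of 18 higher, 8 lower and a median of 0.02. Residual blood was not measured, and its part in these values was not tested.

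Gene lists for transmission and housekeeping processes lay near 0. The serotonin genes had 9 of 20 higher and 11 lower, a median of -0.03 and 1 gene past 0.5 on either side, the receptor gene Htr6 with levels of 6.46 in the control array, 7.30 at 0.5M, 7.26 at 1M and 7.02 log2 at 2M and Tph2. The glutamate and GABA list had a median of 0.00 log2 that turned to -0.01 under cyclic loess. Its lowest members were Homer2, a postsynaptic scaffold (-0.59), and the vesicular glutamate transporter gene Slc17a7 (-0.56). The second Homer2 probe set went the other way, at 0.22, so Homer2 has no settled direction. Clock genes had 12 of 20 higher and a median of 0.03, and dopamine genes 4 of 10 and -0.07. The unfolded protein and heat shock list had 9 of 21 higher and a median of -0.03, the iron list 7 of 16 and -0.05, and the prohormone processing list 6 of 11 and 0.09. Fatty acid and ketone genes were even at 11 and 11 (13 higher and 9 lower with arrays centred on their medians). Ependymal cilia markers had 10 of 15 higher (0.05), choroid plexus markers 5 of 12 (-0.04) and MHC class II genes 3 of 8 (-0.06; 4 of 8 with arrays centred on their medians).

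**Figure D4:**
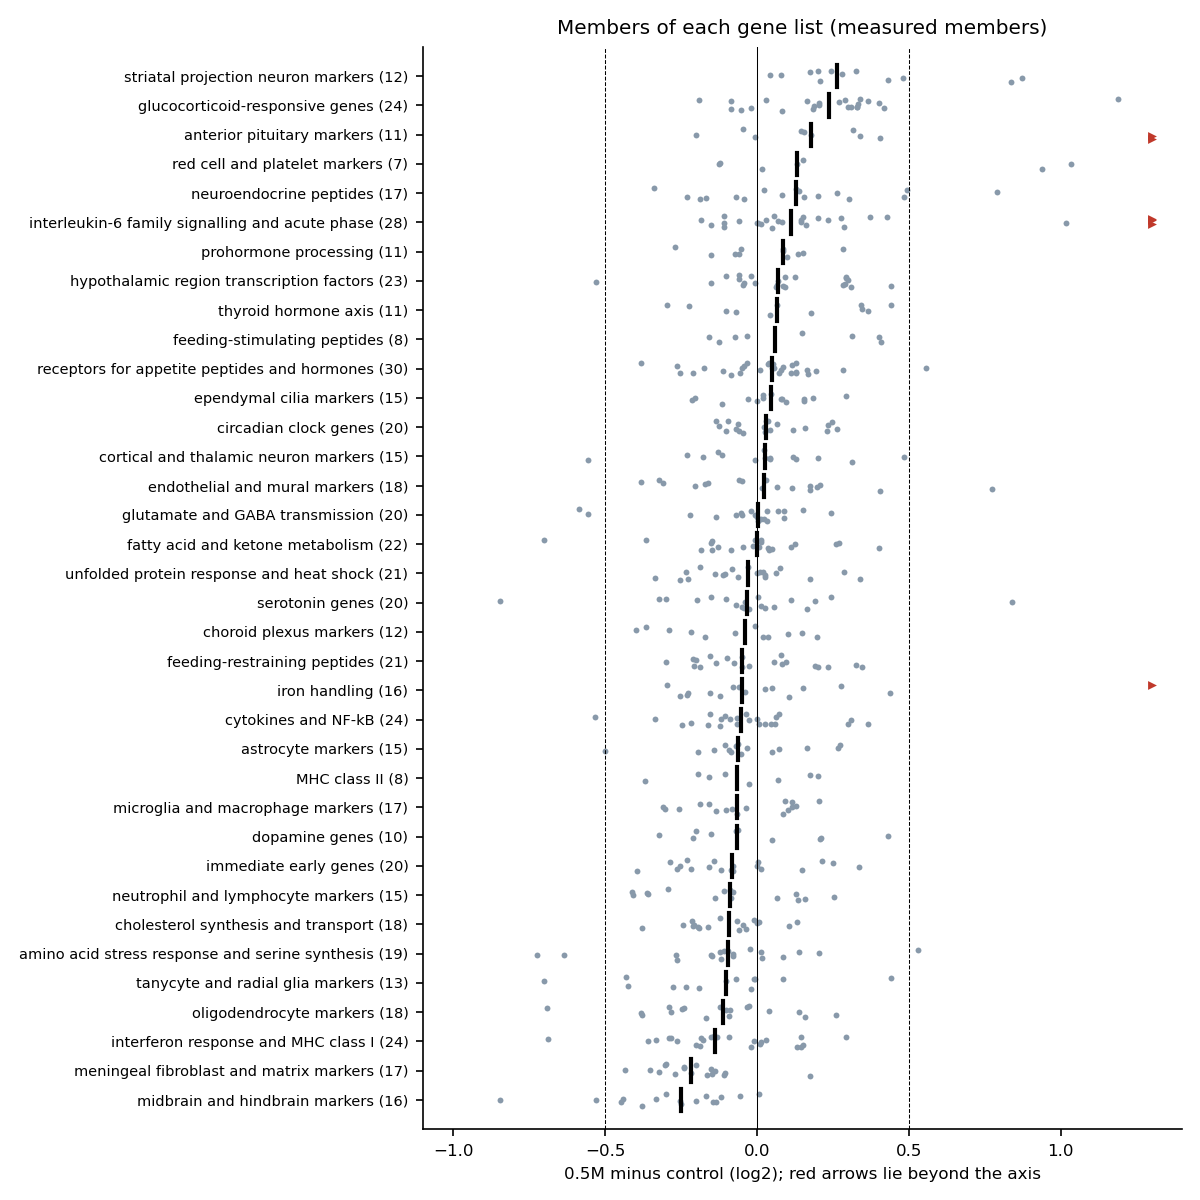
Difference between the 0.5M and control arrays (horizontal axis, log2) for each measured member of 36 gene lists, with the number measured in brackets; points are genes, black bars are list medians, dashed lines mark 0.5 on either side and red arrows are genes beyond the axis. Medians run from -0.25 for midbrain and hindbrain markers to 0.26 for striatal markers.

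Larger symbol families showed the same centring. The smaller family of 22 replication-dependent histone genes did not, with a median of 0.17 log2, 13 higher, 9 lower and 14 below the filter. Cytosolic ribosomal protein genes had a median of 0.01 log2 over 61, which turned to -0.003 under cyclic loess, mitochondrial ribosomal protein genes 0.01 over 77, oxidative phosphorylation genes -0.02 over 82, and proteasome genes -0.01 over 39. The last 2 turned to 0.0075 and 0.0226 when arrays were centred on their medians. Uqcrb, a subunit of respiratory complex III, was the 1 oxidative phosphorylation gene past 0.5, with levels of 11.71 in the control array, 11.19 at 0.5M, 10.88 at 1M and 11.09 log2 at 2M. Rpsa and Rpl27a, ribosomal protein genes with processed copies in the genome, differed by 0.58 (0.32 when its probe sets were averaged) and 0.52, and signal from such copies may not be separated on the array. The 1027 olfactory receptor genes, of which 10 passed the filter, had 13 members higher and 17 lower past 0.5. They serve as a view of differences at low signal, since 1.27% and 1.66% of them crossed the line.

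Small nucleolar RNA genes crossed the 0.5 line more often on the higher side. These RNAs guide chemical modification of ribosomal and other RNAs and most lie in introns of longer genes. Of 54 such genes 6 (11.1%) were at least 0.5 log2 higher and 1 (1.85%) lower, against 0.692% and 0.697% of all genes, with 33 higher and 21 lower by sign and a median of 0.05. Of the 54, 22 lay below the filter. Snord49b had levels of 9.24 in the control array, 10.65 at 0.5M, 10.53 at 1M and 10.27 log2 at 2M, a 2.66-fold difference. Its neighbour Snord49a had levels of 6.19 in the control array, 6.75 at 0.5M, 6.85 at 1M and 6.86 log2 at 2M and Snora44 levels of 7.04 in the control array, 7.95 at 0.5M, 7.90 at 1M and 7.86 log2 at 2M. In these 3 the control array was the lowest. Snord33 differed by 0.54. Below the filter, Snora21 differed by 0.59 and Snord118 by 0.57, and Snora2b was the lower one at -0.54. Snora21 lies within Rpl23, which differed by -0.04.

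MicroRNA genes also crossed the line, and 11 mature sequences follow. Of these, 7 come from higher genes that share a locus and 2 share a seed. The last 2 are from Mir138-2 and Mir107, which share neither with the other sequences shown. These genes were among the highest of the remaining microRNA genes. MicroRNAs are cut from hairpin transcripts and pair with target RNAs through the seed, bases 2 to 8, shown in capitals. Sequences, 5′ to 3′, and positions are from RefSeq (GRCm38.p6). The first 7 come from genes between Dlk1 and Dio3 on chromosome 12, the next 2 share a seed, and the last 2 are those of Mir138-2 and Mir107.
miR-543-3p: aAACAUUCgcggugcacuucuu
miR-369-3p: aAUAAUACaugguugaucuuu
miR-136-5p: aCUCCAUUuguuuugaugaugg
miR-411-5p: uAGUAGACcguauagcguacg
miR-495-3p: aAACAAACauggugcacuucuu
miR-540-3p: aGGUCAGAggucgauccugg
miR-409-3p: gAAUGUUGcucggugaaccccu
miR-30e-5p: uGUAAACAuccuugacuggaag
miR-384-5p: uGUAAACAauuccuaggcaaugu
miR-138-5p: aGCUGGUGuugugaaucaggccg
miR-107-3p: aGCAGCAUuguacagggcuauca
The probe sets are paired with the microRNA genes by the platform annotation and their positions were not checked, so the values below are not read as levels of these mature RNAs. Of the 300 microRNA genes measured 15 (5.0%) were at least 0.5 log2 higher at 0.5M and 7 (2.33%) lower, against 0.692% and 0.697% of all genes, and 95 of the 300 passed the filter. By sign 140 were higher and 159 lower, with a median of -0.01 that turned to 0.01 when arrays were centred on their medians. The mature sequence was found for all 22 genes past the line.

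Of the 15 higher genes 7 lie in the imprinted Dlk1 to Dio3 domain, whose long non-coding RNAs and microRNAs are made from the maternal chromosome. Mir543 (miR-543-3p, chr12:109717304-109717325 on the + strand) had levels of 6.69 in the control array, 7.56 at 0.5M, 7.57 at 1M and 7.42 log2 at 2M. Mir369 (miR-369-3p, chr12:109743466-109743486 on the + strand) had levels of 6.95 in the control array, 7.73 at 0.5M, 7.65 at 1M and 7.66 log2 at 2M. Mir136 (miR-136-5p, chr12:109595331-109595352 on the + strand) had levels of 6.09 in the control array, 6.81 at 0.5M, 6.18 at 1M and 6.53 log2 at 2M. The control array was the lowest in these 3. Mir411, Mir495, Mir540 and Mir409 differed by 0.70, 0.68, 0.56 and 0.55 log2. Mir376c, in the same domain, was the lowest of all genes at -0.93, with levels of 4.20 in the control array, 3.27 at 0.5M, 3.10 at 1M and 3.24 log2 at 2M far below the filter. Of the 40 measured microRNA genes of the domain 29 were higher and 11 lower, with a median of 0.14 log2, and 17.5% crossed the line on the higher side and 2.5% on the lower. For the 260 microRNA genes elsewhere these shares were 3.08% and 2.31% and the median was -0.03. At 1M the median difference from control was 0.14 log2 both in the domain and elsewhere, and at 2M it was 0.16 and 0.08. The contrast between the domain and other microRNA genes was thus not seen at 1M. The domain was singled out after these values were seen. Its long RNAs Meg3 and Rian differed by -0.02 and 0.12, Rtl1 by 0.14 and Dlk1 by 0.14.

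The seed GUAAACA was shared by miR-30e-5p and miR-384-5p, whose genes Mir30e and Mir384 differed by 0.72 and 0.53. The levels of Mir30e were 6.25 in the control array, 6.96 at 0.5M, 6.96 at 1M and 7.03 log2 at 2M, and those of Mir384 were 6.81 in the control array, 7.34 at 0.5M, 6.33 at 1M and 6.96 log2 at 2M. Mir30e was lowest in the control array, whereas Mir384 was lowest at 1M. Other measured genes with this seed lay below 0.5, with Mir30a at -0.25, Mir30c-1 at -0.14 and Mir30c-2 at 0.22. Mir138-2 (miR-138-5p, chr8:94324312-94324334 on the + strand) had levels of 7.39 in the control array, 8.25 at 0.5M, 8.40 at 1M and 8.04 log2 at 2M, and Mir107 (miR-107-3p, chr19:34820700-34820722 on the - strand) levels of 6.28 in the control array, 7.02 at 0.5M, 7.23 at 1M and 7.05 log2 at 2M. The genes that span them differed less, Nup93 by 0.06 and Pank1 by 0.19. Over 173 small RNA genes inside a measured longer gene, strand not considered, 7 of those at least 0.5 log2 higher had such a gene, and their spanning genes lay between -0.11 (Ska2, around Mir301) and 0.19. Nfyc, around Mir30e, differed by 0.04. Of the 132 spanning genes 2 were at least 0.5 log2 higher, namely Rpsa and Rpl27a. These are the ribosomal protein genes given above, whose signal may include processed copies elsewhere in the genome. On the lower side Mirlet7a-2 differed by -0.61, Mir224 by -0.57 and Mir692-1 by -0.54.

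**Figure D5:**
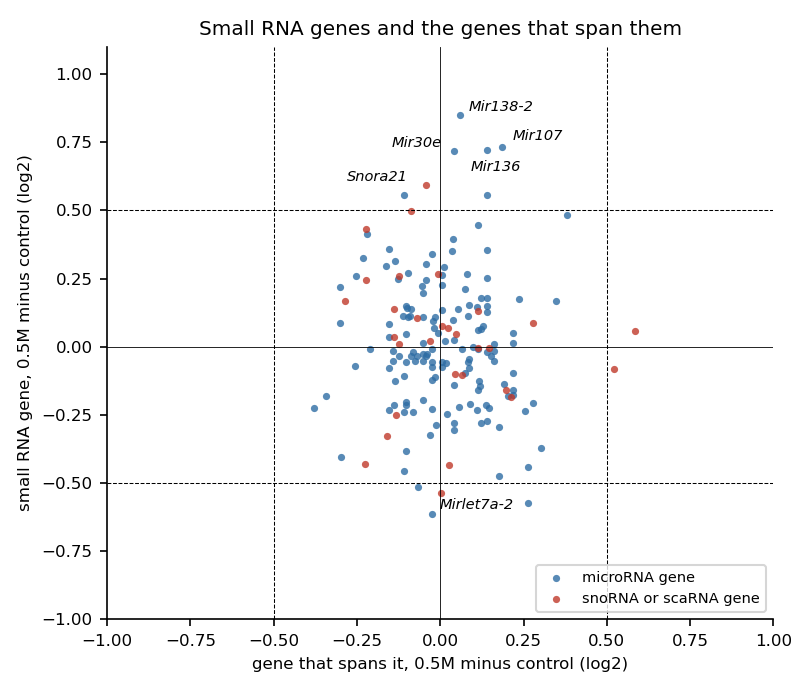
Difference between the 0.5M and control arrays for 173 small RNA genes (vertical axis, log2) against the difference of the longer gene that spans each (horizontal axis, log2); blue points are microRNA genes, red points small nucleolar or Cajal body RNA genes, dashed lines mark 0.5. The 7 small RNA genes above 0.5 have spanning genes between -0.11 and 0.19.

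Among the remaining highest genes past the filter were 2 long non-coding RNA genes, Gm10644 with levels of 6.69 in the control array, 7.93 at 0.5M, 7.84 at 1M and 7.93 log2 at 2M and Gm10874 with levels of 7.04 in the control array, 8.09 at 0.5M, 8.16 at 1M and 8.07 log2 at 2M, both lowest in the control array. The remaining lowest were Rln3, a relaxin family peptide gene of the brainstem nucleus incertus (-0.75), the pseudogenes Gm8624 (-0.72) and 5830417I10Rik (-0.63), Gm10589 (-0.66), the exon junction factor gene Eif4a3 (-0.64), the ribosome biogenesis gene Rrs1 (-0.61), Mzt1 (-0.60), the UFM1-conjugating enzyme gene Ufc1 (-0.59) and the retinol transporter gene Stra6 (-0.59). Rln3 had levels of 7.16 in the control array, 6.42 at 0.5M, 7.20 at 1M and 6.53 log2 at 2M, so the control and 1M arrays were high and the 0.5M and 2M arrays low. The second Mzt1 probe set differed by -0.26. Below the filter the highest genes also included Vaultrc5, a vault RNA (1.08), Vmn1r174 (0.98) and Sh3rf2 (0.99), and the lowest included Olfr320 (-0.93), the histone-processing RNA Rnu7 (-0.92), Kcng4 (-0.84), Krt23 (-0.79) and Cxcr5 (-0.77).

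The 0.5M array was also set against the other tumour-bearing arrays, which does not use the control. Against 1M, 138 genes (0.692%) were at least 0.5 log2 higher at 0.5M and 518 (2.6%) lower. Against 2M, 76 (0.381%) were higher and 188 (0.943%) lower. The number of genes past 0.5 between 0.5M and control, 277 in both directions, was thus of the size of that between 0.5M and 2M, 264, and below that between 0.5M and 1M, 656. The 0.5M array alone stood at least 0.5 log2 above each of the other 3 arrays in 6 genes (0.0301%), namely Gh, Prl, Vmn1r174, Sh3rf2, Pde10a and Ppp1r1b. It stood as far below all of them in 7 (0.0351%), namely Krt23, AA388235, Cracr2b, Olfr521, Gm4884, Mtarc1 and Gm5941, each of which was below the filter. The same counts above and below were 24 (0.12%) and 55 (0.276%) for the control array, 34 (0.171%) and 25 (0.125%) for 1M, and 14 (0.0702%) and 20 (0.1%) for 2M. The control array was therefore the one that most often lay below the rest, and the 0.5M array the one that least often stood apart.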

How the data were processed

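The deposited table holds RMA values on the log2 scale for each probe set, per the submitters' processing notes. The RMA version, the arrays processed together and the genome build were not given in the sources used here. RMA aligns intensity distributions between arrays, which removes any difference common to all transcripts. RNA had an integrity number above 8, per the labels' protocols, and 100 ng was used per array. The study's second data set, of individually arrayed mice, was not analysed here. Of 35556 probe sets, the platform annotation paired 21789 with 1 gene symbol and 1621 with several, and 12146 were not listed. Of the 19938 genes 19855 matched the RefSeq table. Every value column was matched to a sample (0 unmatched).

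Differences of log2 values and counts were computed with Python 3.11.15, pandas 2.3.3 and numpy 2.4.6, figures with matplotlib 3.10.9, and cyclic loess with limma 3.58.1 in R 4.3.3. The counting steps were run on simulated data with known shifts and far less noise than the arrays showed. That run checks the arithmetic and says nothing of the precision of the counts. With 1 array per group the number of arrays limits the precision, and no p-value or error was computed. Array medians over probe sets were 6.75 (control), 6.72 (0.5M), 6.77 (1M) and 6.75 (2M) log2.

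The comparison, its 36 gene lists and 13 symbol families were chosen with earlier results of these data known. Named genes were the 15 highest and 15 lowest past the filter, the 10 highest and 10 lowest of all, up to 4 members per list or family with the largest absolute difference, all listed feeding and neuroendocrine peptides, the genes beside the 0.5 line and 10 hypothalamic identity genes. Further list members and small RNA genes are given as examples and were chosen after their values were seen. Alternatives were the mean over a gene's probe sets, median centring, cyclic loess and filters at the 40th and 60th percentiles.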

Additional observations from a re-analysis of the deposited data

How the results depend on the processing

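Counts at 0.5 log2 were 138 higher and 139 lower, 134 and 134 with a gene's probe sets averaged, 169 and 103 with arrays centred on their medians, and 157 and 109 after cyclic loess. The higher genes made up 49.8% of those past the line as deposited, 62.1% after centring and 59.0% after loess. All 138 higher genes and 103 of the 139 lower ones remained past it after centring, and 135 and 107 after loess. The 40th percentile filter left 67 higher and 35 lower genes and the 60th percentile filter, at 7.84 log2, 29 and 18, because fewer genes were counted. The count at 1 log2 became 4 with the stricter filter. Medians of all 49 lists and families moved by less than 0.1 log2 under averaging, centring and loess, but centring changed how many members were lower in many lists. Examples were from 11 to 8 of 13 tanycyte markers, from 15 to 13 of 18 cholesterol genes and from 5 to 4 of 8 MHC class II genes. Others were from 16 to 14 of 24 interferon and MHC class I genes, from 11 to 10 of 20 serotonin genes, from 7 to 6 of 12 choroid plexus markers and from 11 to 9 of 22 fatty acid genes. Filtering moved the median of pituitary markers from 0.18 to 0.34 and 0.0493 log2 (40th and 60th percentile), of red cell and platelet markers from 0.13 to 0.54 and 1.03, and of small nuclear RNA genes from 0.09 to 0.24 and 0.29, each over fewer members. The 60th percentile filter alone gave 0.36 for feeding-stimulating peptides, 0.23 for neuroendocrine peptides, 0.18 for the thyroid axis, 0.0603 for cytokines, -0.20 for dopamine genes, 0.29 for hypothalamic transcription factors, 0.0914 for microglia, 0.16 for ependymal markers, -0.37 for choroid plexus markers, -0.0906 for keratins and -0.16 for collagens. Neutrophil and lymphocyte markers and vomeronasal receptors gave no value under either filter, and MHC class II genes none under the stricter one. Of 234 named genes 228 kept their value within 0.1 log2 when probe sets were averaged. The exceptions were Ciart (0.43), Cycs (0.05), Homer2 (-0.18), Mzt1 (-0.43), Pou3f2 (0.03) and Rpsa (0.32). No paired analysis was possible because each group was 1 array without a replicate number, and for the same reason no array could be left out. Levels near the background of the array vary more, and 7975 genes lay below the filter.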

Other observations

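The 12146 probe sets that the platform annotation does not list were left out of every comparison by gene. Of these, 662 (5.45%) were at least 0.5 log2 higher at 0.5M than in the control array and 1270 (10.5%) at least 0.5 log2 lower, against 0.692% and 0.697% of the named genes.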
